A study of Mus musculus with 3 samples.

Results

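The genes described here encode the proteins of the cytoplasmic ribosome and the main factors that carry the ribosome along an mRNA, in IEC sorted from mouse SIO co-cultures with ILC3. Members were taken by symbol: protein-coding genes named Rpl or Rps followed by a number, with the paralogue suffixes a, x, l and y, gave 31 proteins of the small subunit and 48 of the large subunit. Eef1a1, Eef1b2, Eef1g, Eef2, Tpt1, Naca and Pabpc1 were added by name, which made 86 genes of the 35824 in the count table. Counts were found for 83 of them, and all 83 passed the filter on low counts. Rpl3l, Rpl10l and Rpl39l held 0 counts in every library.

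IEC are intestinal epithelial cells, and SIO are organoids grown from the crypts of the distal small intestine, here from female CD45.1 C57BL/6 mice that the labels give as 6 to 8 weeks old. ILC3, innate lymphoid cells sorted as a mixed population from the small intestine of GFP reporter mice, were cultured with the SIO for 4 days, in medium that also held IL-2, IL-7 and IL-15, and the epithelial cells were then purified by FACS. The 3 libraries, A, B and C, all come from this IEC + ILC3 condition, are labelled as biological replicates and were made with SMART-Seq2, a full-length protocol for small RNA inputs. A and B are marked as used in the final analysis and C as left out of it, with no reason given, so values are given in the order A, B, C and summarised over A and B first; IEC ONLY samples are not analysed here, and the values hold no comparison of ILC3 with their absence.

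A ribosome is built from a small subunit, which reads the mRNA, and a large subunit, which joins amino acids. Most subunit proteins are needed in equal number in each ribosome, and their mRNAs share a start made of pyrimidines, the TOP motif, through which mTORC1 signalling and the protein Larp1 adjust how strongly they are translated. Intestinal crypts hold stem and progenitor cells that divide fast and make many ribosomes, so these mRNAs are abundant in epithelium of this kind.

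The start of a TOP mRNA is a C followed by a run of pyrimidines, and the sequences around the annotated start are shown for members that later paragraphs return to. A run of at least 8 bases, a C followed only by C or T on the transcribed strand, was searched from 20 bases before the start to 30 bases from it, in RefSeq starts on GRCm38.p6. It was present in 33 of the 62 members above 0 that had an entry, or 53.2%, and in 17.0% of all 27025 genes in that table. By role the share was 52.2% for 23 small subunit genes and 58.8% for 34 large subunit genes, and 1 of 5 added factors had a run. Among lists outside the members, 14 of 69 mitochondrial ribosomal protein genes (20.3%) and 8 of 29 initiation factor genes (27.6%) had one. Of 66 nuclear genes for oxidative phosphorylation 9 had one (13.6%). Where a gene had several starts, the one nearest to the 5′ end of the GENCODE gene is shown; the starts shown lie 3 to 336 bases from that end, so a true start may lie elsewhere, and a match in these letters is a description and not a site. Each line gives 10 bases before the start and 20 from it, with the run in capitals. Rps6, Rps18, Rps12, Rps27 and Rpl22l1 hold a run, while Rpl22 and Rpl7l1 are shown because none was found in the window searched.
Rps6, chr4:86857348-86857377, minus strand: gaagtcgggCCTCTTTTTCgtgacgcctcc
Rps18, chr17:33955646-33955675, minus strand: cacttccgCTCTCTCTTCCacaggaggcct
Rps12, chr10:23787190-23787219, minus strand: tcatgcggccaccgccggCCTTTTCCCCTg
Rps27, chr3:90213629-90213658, minus strand: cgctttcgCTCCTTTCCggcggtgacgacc
Rpl22l1, chr3:28805498-28805527, plus strand: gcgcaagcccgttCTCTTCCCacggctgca
Rpl22, chr4:152325716-152325745, plus strand: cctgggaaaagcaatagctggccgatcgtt
Rpl7l1, chr17:46782637-46782666, minus strand: gctgcgcaagcgcagtagctgaagcaccgg

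The libraries held 17946361, 23142849 and 28913885 estimated counts in total. All 12 epithelial markers checked were present, with summed levels of 21395, 24414 and 22123 CPM, counts scaled to the size of the library. Of 14 ILC3 and lymphocyte markers 5 were above 0, while Il22 and Cd3e were at 0 and Ptprc, which encodes CD45, had 1 count in A and 0 in B and C. Thy1 had 16, 87 and 3 counts, so it was highest in B and lowest in C, the order that most members take below. The list as a whole did not take that order, with summed levels of 45.8, 37.5 and 33.0 CPM, highest in A. Of the 2 markers with at least 10 counts in A and B, 1 was higher in B and 1 lower. The part of these markers in the members' values was not tested. Of 10 stromal and myeloid markers 4 were above 0, with sums between 1.21 and 3.48 CPM.

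The members took 4.29% of all counts in library A (95% exact binomial interval 4.28 to 4.30), 6.86% in B (6.85 to 6.87) and 3.54% in C (3.53 to 3.54). The mean was 5.57% ± 1.81 (SD, n = 2) over A and B, and 4.90% ± 1.74 (SD, n = 3) with C. Library B therefore stood above both others by far more than the counting error, and the spread between libraries, not the depth, set the precision of these shares. These intervals hold counting error and nothing else, because amplified reads that carry no molecular identifier are not separate molecules. Small subunit genes made up 1.39%, 2.30% and 1.24% of all counts, and large subunit genes 1.83%, 3.01% and 1.61%. The 4 elongation factors made up 0.995%, 1.43% and 0.592%, and Naca, Pabpc1 and Tpt1 together 0.0806%, 0.109% and 0.0968%. The order of the libraries was thus B, A, C for both subunits and for the elongation factors, while the other 3 factors had their lowest share in A. Mitochondrially encoded genes, for comparison, took 2.69%, 2.74% and 2.39%. In bulk samples such as these, fewer cells with a high level and less mRNA per cell cannot be told apart.

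**Figure D1:**
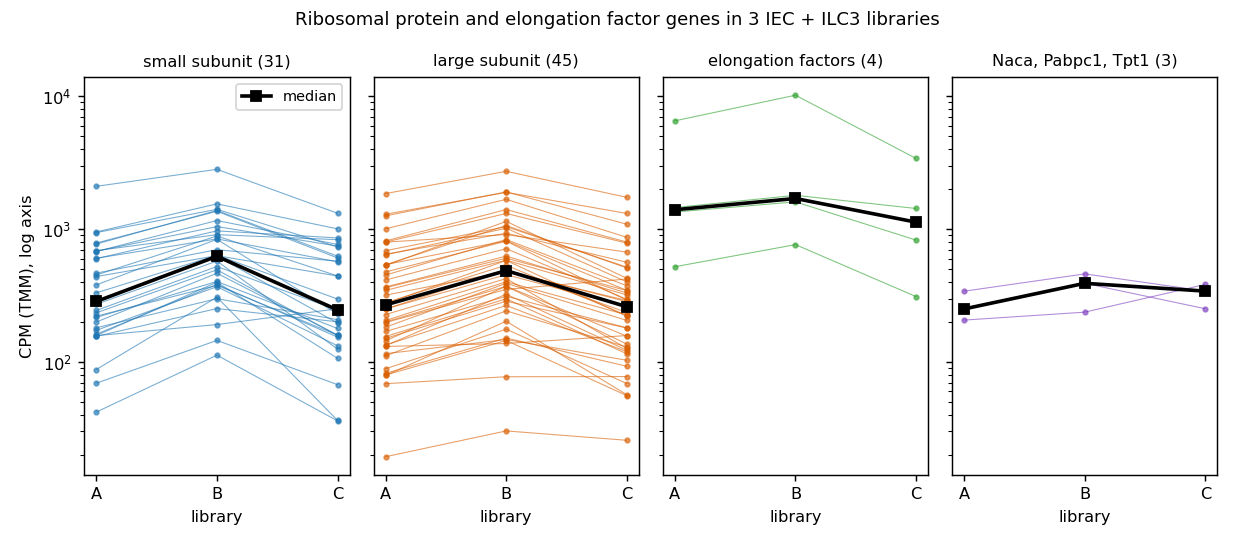
Level of each of the 83 members above 0 (thin lines, CPM scaled with TMM factors, log axis) in libraries A, B and C, in 4 panels by role, with the median of each panel as a black line. Library B is the highest of the 3 for 78 members, and library C the lowest for 55.

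The plot of levels by role shows how uniformly B stood above A. All 83 members had a higher CPM in B than in A, where 48.6% of the 11989 genes that reached 10 counts in A and B did and 51.4% had a lower one, and 65 of the 83 were at least 1.5-fold higher, against a background of 14.4%. The median ratio was 1.72-fold, a log2 difference of 0.78, and single members ran from 0.07 for Rpl7l1 to 1.81 for Rps12. These are ratios of 1 library to another, with no replicate check and no test, and members of one pathway are not replicates. Small and large subunit genes had near-equal medians of 0.84 and 0.86 on the log2 scale, and the 4 elongation factors and the 3 other factors lower ones, both 0.43. The SD of the log2 ratio over the 76 ribosomal protein genes was 0.31, smaller than their median ratio.

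Library C lay closer to A than to B. On the log2 scale the members' median was -0.13 for C against A, with 28 of 83 higher in C (background 50.5%), and -0.96 for C against B, with 5 of 83 higher in C (background 51.7%). In 64 members B was at least 1.5-fold above C, against 25.1% of the 11488 genes compared, and in 1, Pabpc1, C was at least 1.5-fold above B, against 24.2%. C held the highest level of the 3 in 5 members, Rpl35, Rpl5, Rpl7l1, Pabpc1 and Rps27l, lay between A and B in 23, and was lowest in 55. For Rpl5 the levels in B and C were nearly equal, 77.5 and 77.7 CPM. With the near-identical copy of Rpl5 added (713, 972 and 785 CPM), C lay between A and B.

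Eef1a1 was the most abundant member in every library. Eef1a1 (chr9:78478449-78489151 on GRCm38, minus strand) encodes the factor that brings aminoacyl-tRNA to the ribosome, and it held 6531, 10183 and 3402 CPM, or 15.4%, 14.8% and 9.54% of the members' counts. It ranked 5 among all genes by its mean over A and B and 16 in C. Eef1b2 and Eef1g, subunits of the exchange factor that reloads Eef1a1 with GTP, gave 521, 764 and 311 CPM and 1453, 1797 and 1430 CPM. Eef2, which moves the ribosome by a codon, gave 1346, 1604 and 827 CPM. Eef1a1, Eef1b2 and Eef2 were each lowest in C, outside the range of A and B, while Eef1g in C had 0.984 times its level in A.

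The remaining added genes did not share a pattern in C. Naca, the alpha subunit of the complex that binds nascent chains at the exit tunnel, gave 341, 460 and 342 CPM. Tpt1, which encodes translationally controlled tumour protein and carries a TOP mRNA, gave 251, 391 and 252 CPM. Both were nearly equal in A and C. Pabpc1, the cytoplasmic poly(A)-binding protein, gave 207, 237 and 384 CPM, with C above both other libraries.

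To compare genes with each other, levels were divided by transcript length and are given as CPM per kilobase, mean ± SD over A and B (n = 2). The sources used here do not say whether the deposited counts already carry a correction for length; if they do, this scale means something else, and the order of genes and the ratio of the subunits could change. The 76 ribosomal protein genes above 0 had a median of 625 CPM per kilobase, with quartiles of 361 and 960. Rps2 was highest with 2464 ± 509, followed by Rpl41 with 1918 ± 988, Rpl13 with 1720 ± 609, Rpl32 with 1551 ± 719 and Rpl4 with 1488 ± 401. Rps18, Rps6, Rps19 and Rps14 came next, between 1315 and 1426. With n = 2 the SD restates the difference between A and B, which has the same sign in all these genes. Among these 76 genes Rps2 was the highest in both A and B, while in C Rps18 (1487) and Rps14 (1438) stood above Rps2 (1319). Eef1a1, with 4658 ± 1439, stood above all 76. Core ribosomal proteins that the symbol rule leaves out, such as Rplp0, were not ranked on this scale. By library the median of the ribosomal protein genes was 481 in A, 807 in B and 376 CPM per kilobase in C. Summed over each subunit, the 45 large subunit genes above 0 had 1.21, 1.20 and 1.14 times the level per kilobase of the 31 small subunit genes. These are ratios of sums over unequal numbers of genes, so they do not compare the level per gene. This ratio of the subunits varied far less between libraries than the levels themselves. Rps20 is low on this scale, with 114 ± 57.9, but its only coding model in the annotation used is 3706 bases long.

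Among the rows of small subunit genes, the ratio of B to A was highest for Rps12, at 87.8, 308 and 36.3 CPM. Rps21 gave 42.0, 113 and 36.0 CPM, and Rps28 gave 158, 399 and 107 CPM. All 3 were highest in B and lowest in C, and C was nearer to A than to B. Rps2, a core protein near the mRNA entry side, gave 2100, 2819 and 1316 CPM, a log2 ratio of B to A of 0.42. Rps6, the subunit protein that S6 kinases phosphorylate, gave 952, 1549 and 1005 CPM. Rps18, at 689, 909 and 833 CPM, and Rps14, at 600, 970 and 858 CPM, were among those with C between the other 2 libraries. Rps4x, whose gene is on the X chromosome, gave 772, 1382 and 626 CPM.

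Among large subunit genes, Rpl27 gave 144, 372 and 156 CPM and Rpl39, one of the shortest ribosomal proteins, 79.1, 203 and 56.7 CPM, the highest ratios of B to A among the rows of this subunit. Rpl4 gave 1852, 2723 and 1735 CPM, and Rpl3, at the peptidyl transferase centre, 1258, 1906 and 1089 CPM. In both B was highest, and A and C differed by less than either did from B. Rpl15 gave 798, 910 and 671 CPM, a log2 ratio of B to A of 0.19, which was 0.40 with its near-identical copies added. Rpl35 was an exception in C, with 198, 352 and 421 CPM.

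Paralogues of single ribosomal proteins were present at very different levels. Rpl3l, known from striated muscle, and Rpl10l and Rpl39l, known from testis, held 0 counts, which, with 3 counts as the limit, allows a level of up to 0.167 CPM in A, to 0.130 in B and to 0.104 in C. Eef1a2, the elongation factor of muscle and neurons, and Rps4l, annotated as a pseudogene, were at 0 as well. Rpl22l1 gave 116, 148 and 103 CPM beside 79.8, 145 and 55.8 CPM for Rpl22, so that its counts were 1.45, 1.02 and 1.85 times those of Rpl22. Rpl7l1 gave 131, 138 and 158 CPM beside 815, 1404 and 799 CPM for Rpl7, the smallest B to A ratio of all members. Rpl36al, which the symbol rule leaves out, gave 170, 297 and 196 CPM beside 134, 266 and 120 CPM for Rpl36a. Rps27l, a paralogue that p53 is known to induce, gave 158, 191 and 252 CPM beside 69.2, 145 and 67.5 CPM for Rps27. In all 4 pairs with both genes present, the paralogue's counts relative to its partner were lowest in B and highest in C. For Rps27l the counts were 2.28, 1.32 and 3.73 times those of the Rps27 row, but 0.469, 0.295 and 0.767 times once the reads of a near-identical copy of Rps27 were added, so which gene of this pair is the more abundant depends on that copy.

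Near-identical gene copies matter throughout this family. A copy was counted where another gene held at least 90% of the stretches of 31 bases in a member's coding sequence, and 52 such copies were found for 36 members. In 33 members every such stretch also occurs in other genes, so their reads can be split between rows by the estimation. The copies held 6.35%, 6.24% and 7.38% of the counts of members and copies together. For a few members most counts were on a copy. Of the counts for Rpl5, which binds 5S rRNA together with Rpl11, 90.4%, 92.0% and 90.1% were on its copy Gm15500. For Rpl12 the shares on Gm10275 were 89.7%, 91.3% and 86.5%, for Rps27 the shares on Rps27rt were 79.4%, 77.6% and 79.4%, and for Rpl10 the shares on 4 copies, nearly all Rpl10-ps3, were 57.7%, 52.5% and 61.6%. The order of the libraries can change with the copy: for Rpl12, C was 1.33 times A on the row and nearly equal to it with the copy. The low rows of Rpl5 (68.7, 77.5 and 77.7 CPM) and Rpl12 (19.4, 30.3 and 25.7 CPM) thus give the rows only, and with their copies added the levels were 713, 972 and 785 CPM for Rpl5 and 187, 347 and 190 CPM for Rpl12.

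**Figure D2:**
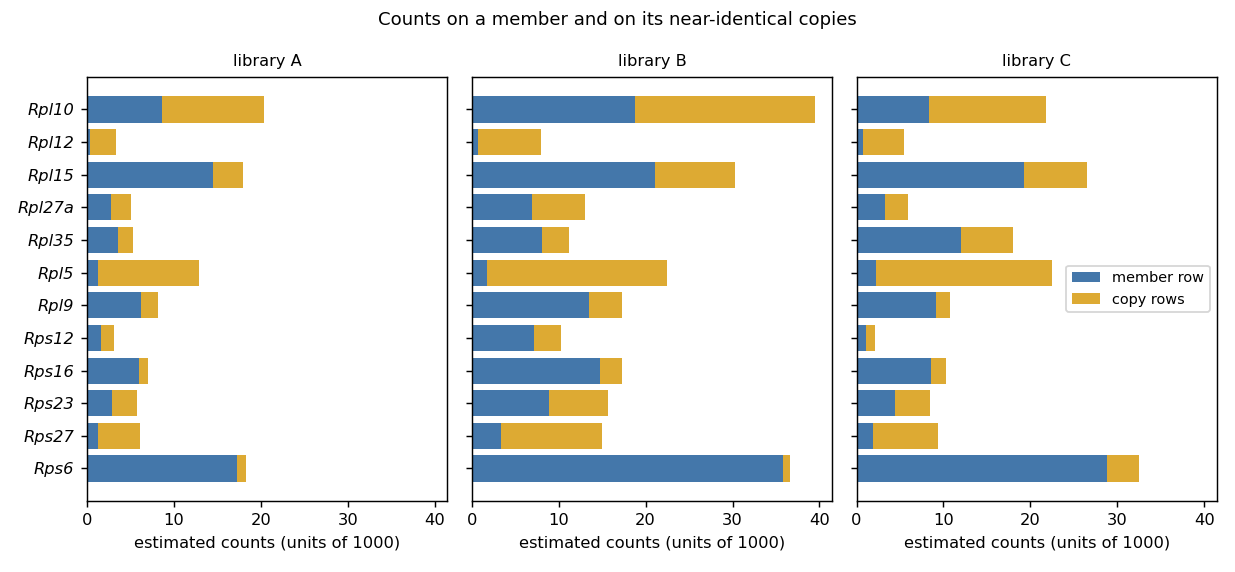
Estimated counts (in units of 1000) on the row of a member (blue) and on its near-identical copies (yellow), stacked, in libraries A, B and C, for the 12 members with most counts on copies; the 3 panels share an axis. Most of the counts of Rpl5, Rpl12 and Rps27 are on copies in all 3 libraries, while Rps6 has 5.57%, 2.26% and 11.5% there.

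In some members the split differed between libraries and changed the ratio of B to A. The copy Rpl27-ps3 held 817, 25 and 484 counts, or 23.8%, 0.290% and 9.75% of the counts for Rpl27, and with it the log2 ratio of B to A was 0.98 in place of 1.37. For Rps12 the copies held 48.4%, 30.9% and 50.1%, and with them the log2 ratio was 1.39 in place of 1.81. Both were still above the members' median of 0.78, but neither kept the highest ratio of its subunit. Rps21, at 1.42, was then above Rps12, and several genes, Rpl39, Rpl37, Rpl31 and Rpl41 among them, were above Rpl27. For Rpl5 the copy raised the log2 ratio from 0.17 to 0.45, and for Rpl12 from 0.65 to 0.89. With copies added all 83 members were still higher in B than in A.

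The ratio of B to A was set beside that of lists of related genes, chosen by function. In the 8 core ribosomal proteins that the symbol rule leaves out, the pattern was that of the members: all 8 were higher in B, 6 of them by at least 1.5-fold, with a median log2 ratio of 0.82. Rplp0, the base of the ribosomal stalk, gave 2942, 4374 and 2276 CPM, Rpsa 956, 1616 and 523 CPM, and Fau, which encodes a ubiquitin-like fusion with a small subunit protein, 775, 1378 and 501 CPM. Factors that act on the ribosome without being part of it had lower ratios. Of 36 initiation factors 19 were higher in B and none by 1.5-fold, with a median of 0.04. Of 8 other elongation, termination and recycling factors 4 were higher in B, with a median of 0.05. Of 30 ribosome biogenesis genes 18 were higher in B, with a median of 0.12; the abundant Npm1 gave 775, 990 and 722 CPM and Ncl 499, 685 and 474 CPM. Of 12 genes for nascent chain and cotranslational chaperones 9 were higher in B, with a median of 0.16. Of 11 genes listed as further TOP mRNAs and snoRNA hosts, only 4 were in the count table. Of these 4 genes 3 were higher in B, with a median of 0.32. Among 15 genes of the mTORC1 pathway the split was 8 to 7, with a median of 0.02.

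**Figure D3:**
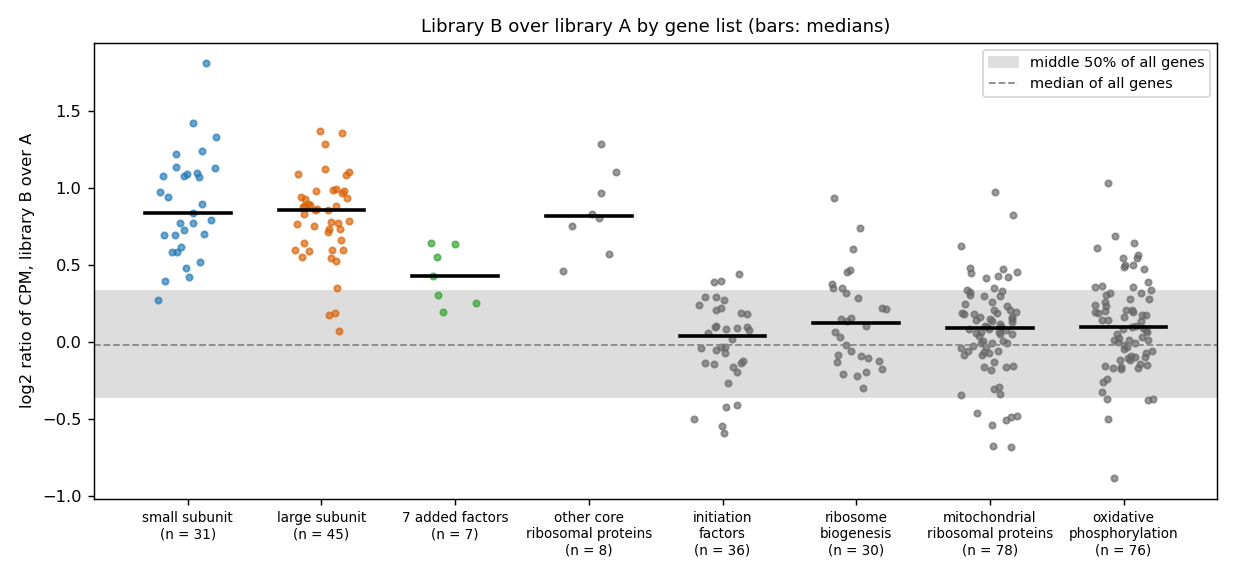
Log2 ratio of CPM in library B over library A for single genes (points) of the members by role and of 5 other lists, with black bars as medians; the grey band holds the middle 50% of all 11989 genes compared and the dashed line their median. The 2 subunits (medians 0.84 and 0.86) and the other core ribosomal proteins (0.82) lie above the band, while the medians of initiation factors, biogenesis factors, mitochondrial ribosomal proteins and oxidative phosphorylation subunits are between 0.04 and 0.12.

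The plot of B over A by gene list also holds 2 sets of genes for mitochondrial proteins. Of 78 mitochondrial ribosomal protein genes 50 were higher in B, with a median log2 ratio of 0.09, and 3 reached 1.5-fold; their median transcript length was 1208 bases. Of 76 nuclear genes for oxidative phosphorylation 49 were higher in B, with a median of 0.10, and 4 reached 1.5-fold. The median length of this second set was 680 bases, beside 761 for the members. Within the members, shorter coding sequences went with higher ratios of B to A (Spearman's rho of -0.65 over 83 genes that share the same pair of libraries), and so did shorter transcripts (-0.50). Across all 11989 genes the rho of this ratio with transcript length was 0.01, and the 1381 genes under 1000 bases that are not members had a median of 0.09. The part of length in the members' ratio was not tested. The median log2 ratio was 0.83 in the 33 members with a pyrimidine run and 0.79 in the 29 without.

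Library C was then compared with A and B together, to see whether the library left out of the final analysis stands apart in these genes. In edgeR's quasi-likelihood test with Benjamini-Hochberg adjustment at 0.1, the threshold of the study, 892 of 13604 genes were called, or 6.56%, of which 185 were higher in C (1.36% of those tested, and no member) and 707 lower. Of the 83 members 1 was called, Rps20, or 1.2% beside a background of 5.2% for genes lower in C. Rps20 (chr4:3831334-3835665, minus strand), a small subunit protein, gave 272, 575 and 125 CPM, with a log2 fold change of -1.76 (SE 0.468, adjusted p = 0.0946 in edgeR's quasi-likelihood test). The test compares 1 library with 2, leaves 1 residual degree of freedom per gene and takes C to vary like A and B, so it describes these libraries and not a condition. The call was lost when the totals left out the members, with an adjusted p of 0.108 in the same edgeR test.

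Many members had lower values in C without passing the test. The fitted log2 fold change was below 0 in 75 of the 83, beside 54.4% of all genes tested, and its median was -0.64 beside -0.10 for all genes. An unadjusted p under 0.05 was reached by 21 members, 20 of them with lower values in C, where 22.3% of all genes did. Eef1a1 had a log2 fold change of -1.30 (SE 0.358) and an adjusted p of 0.1001 in edgeR, just above the threshold, and Rps12 one of -2.45 (SE 0.684) and an adjusted p of 0.102. Rpl30, at 228, 425 and 126 CPM, followed with -1.37 (SE 0.416). Pabpc1 was the member with the largest positive value, 0.79 (SE 0.280, adjusted p = 0.158 in edgeR). In the other core ribosomal proteins all 8 values were negative, with a median of -0.89, and none was called; Rplp1, at 494, 1063 and 271 CPM, and Rpsa had the lowest adjusted p of them in edgeR, 0.121 and 0.113.

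**Figure D4:**
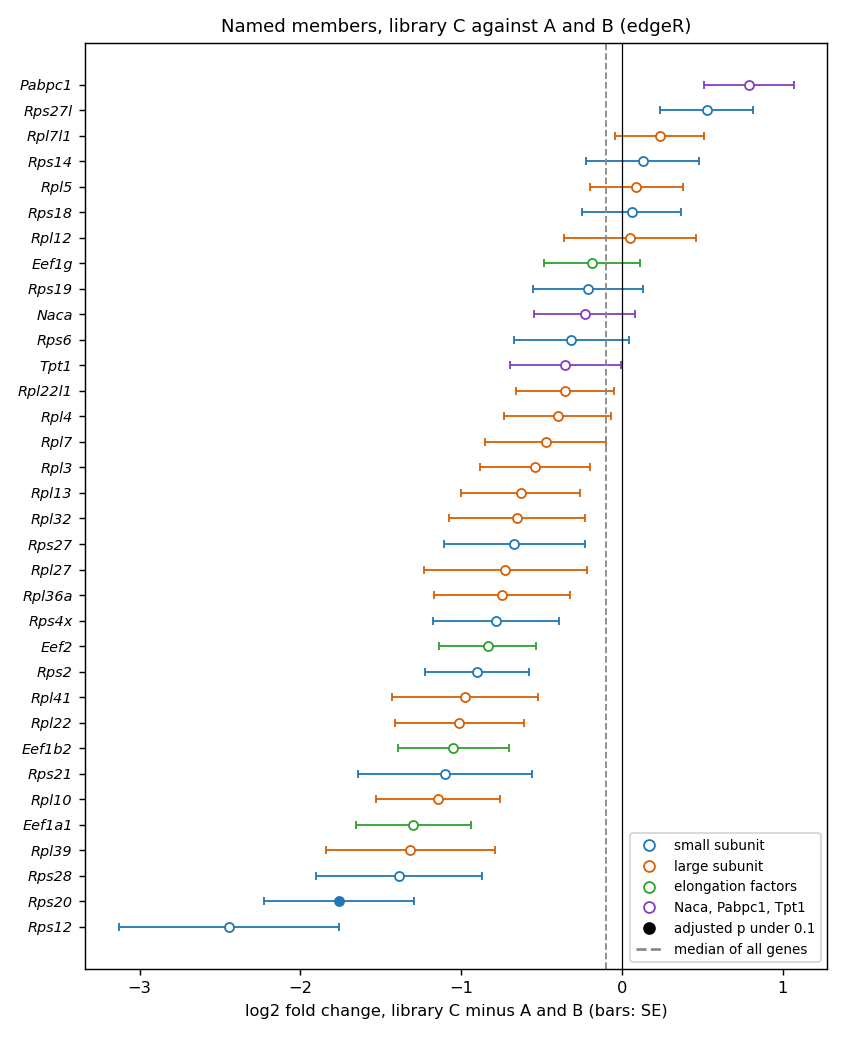
Log2 fold change of library C against A and B from the edgeR fit for members named by rule (points, bars for the standard error), coloured by role, with the median of all 13604 genes as a dashed line. Rps20 (filled) is the 1 member past the threshold; Rps12 and Eef1a1 lie at -2.45 and -1.30, and Pabpc1 is at 0.79.

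How low C appears depends on library B. Against A alone, with B left out, the members' median was -0.13, and against B alone it was -0.96, so the value of -0.64 lies between these and rests on B. The number of members called depended on the filter: edgeR without a filter on low counts called 31, beside 13.8% of all 17457 genes. The DESeq2 Wald test used its own size factors and its own filtering. It called more members than the reported fit, nearly all of them lower in C, and also a larger share of all genes, 13% of those it adjusted.

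Calls in the other lists are set beside 1.36% of all genes called higher in C and 5.2% called lower. The share called higher in C was larger than this in the mitochondrial ribosomal proteins and in the initiation factors. The remaining calls given here are single genes of their lists. Of the initiation factors 2 of 36 were called, both higher in C: Eif4a1, the helicase of the cap-binding complex, at 1130, 1075 and 2227 CPM (log2 fold change 1.01, SE 0.275, adjusted p = 0.0971 in edgeR), and Eif5 at 503, 457 and 966 CPM. Of 78 mitochondrial ribosomal protein genes 7 were called, all higher in C, with a median log2 fold change over the list of 0.47; Mrps14 gave 92.2, 67.0 and 198 CPM and Mrpl37 142, 113 and 278 CPM. Of 30 biogenesis genes 1 was called, Wdr12, at 51.5, 47.1 and 123 CPM. Among nascent chain and cotranslational chaperones Hspa14 was called, at 79.0, 73.8 and 153 CPM, and among oxidative phosphorylation genes Ndufa12, at 141, 137 and 298 CPM. In the mTORC1 list 1 of 15 was called and was lower in C: Tsc2, an inhibitor of mTORC1, at 56.2, 66.0 and 13.1 CPM (log2 fold change -2.22, SE 0.350, adjusted p = 0.0275 in edgeR). Larp1, which binds the start of TOP mRNAs, gave 17.4, 23.7 and 47.5 CPM and was not called (adjusted p = 0.111 in edgeR). Of the epithelial markers Muc2, the mucin of goblet cells, was called, with 256, 219 and 50.5 CPM, and its part in the members' values was not tested.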

How the data were processed

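RNA of sorted IEC from 3 SIO co-cultures with ILC3 was sequenced by the authors after SMART-Seq2 amplification. The authors trimmed reads with Trimmomatic 0.39, estimated transcript abundance with Salmon 0.14.1 against Ensembl transcripts of GRCm38.p6, and used tximport to reach gene level. What they deposited is an estimated count for each Ensembl gene, in whole numbers, which needed no rounding. Estimation divides reads shared by near-identical genes between rows, which bears on ribosomal proteins and their pseudogenes.

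Symbols, lengths and coordinates came from GENCODE M21 on the same build, and 318 of 35824 rows without a symbol stayed in the totals. CPM were computed with TMM factors; lengths are those of the shortest complete coding transcript of the consensus coding set. Start windows came from RefSeq (GRCm38.p6), where 62 of 83 members above 0 had an entry. Ratios between single libraries used genes with at least 10 counts in both. Library C was tested against A and B with edgeR 4.0.16 in R 4.3.3 (filterByExpr, quasi-likelihood F test, Benjamini-Hochberg at 0.1), since the labels give 1 condition only; DESeq2 1.42.0, other scalings and filters, pseudogene rows added to their parents, other lengths and leaving out each library were alternatives. Depths of 17946361 to 28913885 counts leave counting error small beside the spread between libraries. Nothing in the sources used here ties the libraries to separate mice, so a p-value here reflects how far these libraries spread, which may be technical. On simulated counts for this comparison (13087 to 13132 genes, 200 changed, 3 runs) the test recovered 65.3% of 4-fold and 83% of 16-fold changes, and 13.9% of calls were false.

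The members and lists were chosen with earlier results of these data known. Named were the 7 added factors, the 10 ribosomal protein genes highest per kilobase, the 5 members above 0 with the lowest mean CPM, members called in C, the 5 with the largest ratio of B to A, both genes of each paralogue pair, and from other lists the most abundant and the called genes. Some of these are not reported here. Rpl15, Rpl30, Rpl35, Larp1 and the copies were named after their values were seen. Tables and figures were made with Python 3.11.15, pandas 2.3.3, numpy 2.4.6, scipy 1.17.1 and matplotlib 3.10.9.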

Additional observations from a re-analysis of the deposited data

How the results depend on the processing

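The count of members called in C against A and B, 1 in the reported fit, was 4 with plain totals (1246 of 13604 genes in all). It was 0 with totals that left out the members (740) and 31 without a filter on low counts (2402 of 17457). It was 7 with at least 10 counts in every library (1030 of 11232) and 2 with pseudogene rows added (894). With near-identical copies added, an alternative chosen after seeing the data, it was 2 (884). The DESeq2 Wald test, with its own size factors and filtering, gave 17 (1737 of 13403), and a threshold of 0.05 gave 0 (276). The reported fit called 892 of 13604. The cause was not tested. The members' median against A and B stayed below 0 under every alternative run, from -0.96 without replicate 1 to -0.13 without replicate 2. The share of counts ranged from 4.29% to 6.86% over A and B and from 3.91% to 5.57% over A, B and C when replicates were left out. The large to small subunit ratio, which compares sums over unequal numbers of genes, was 1.18 over the 3 libraries. It was 1.23 with pseudogene rows added, 1.25 with the core proteins outside the symbol rule and 1.27 with median transcript lengths. With a replicate left out it was 1.17 to 1.20. Among single named members, Rpl12 changed sign with totals that left out the members (-0.00081) and with copies added (-0.49), and Rpl5 with copies added (-0.10); Rps20 lost its call with totals that left out the members (-1.81). Of the other values for named members, 318 kept direction and side of the threshold and 28 passed it only in an alternative. No paired analysis was possible because there is 1 condition, so no 2 groups share replicate numbers. With 3 libraries and 1 residual degree of freedom, changes of 4-fold in single members can be missed.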
